A study of Mus musculus with 6 samples.

Results

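Inhibitory receptors are surface proteins that restrain activation, phagocytosis and cytokine release in macrophages, and 8 of their genes were followed here in macrophages from Cd28 KO and WT mice: Pirb, Lilrb4a, Cd200r1, Havcr2, Sirpa, Lair1, Cd300a and Siglec1. They were taken by gene symbol, through the Entrez numbers of the deposited files, from 14574 genes listed in any library. All 8 were listed in all 6 libraries, and all 8 were among the 10172 genes that passed the filter of a mean of at least 1 FPKM (sequenced fragments corrected for transcript length and for library size). The samples were bone marrow-derived macrophages, cells grown from femoral marrow for 7 days in DMEM with 10% fetal calf serum, 2-mercaptoethanol (2-ME) and human M-CSF (macrophage colony-stimulating factor) at 25 ng/ml, and were not treated further. Marrow came from Cd28 KO mice (the knockout) and from C57BL/6J (WT) mice, in both cases 6 to 10 weeks old, and each genotype had 3 libraries. The sources used here do not give the targeted part of Cd28, the sex of the mice, or whether each replicate number was a separate animal. The p-values therefore describe the spread among these 6 libraries, which may be technical between replicates 1 and 2. Replicate 3 of each genotype alone listed Y-linked genes (below), so it was not a technical repeat of replicate 1 or 2.

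Most receptors of this kind carry a short tyrosine motif in the cytoplasmic tail, called ITIM. Once phosphorylated by Src-family kinases, it recruits the phosphatases encoded by Ptpn6, Ptpn11 and Inpp5d, which undo signals from activating receptors. Many have activating relatives that bind similar ligands but signal through the adaptors Tyrobp or Fcer1g. Pirb (binding MHC class I), Lilrb4a (also called gp49B), Sirpa (binding Cd47), Lair1 (binding collagens) and Cd300a (binding phospholipids of dying cells) are ITIM receptors. Cd200r1, the receptor of Cd200, instead recruits Dok adaptors, and Havcr2 (TIM-3) signals through other tail tyrosines. Siglec1 (sialoadhesin, CD169) binds sialic acids, is known as an interferon-inducible gene of macrophages, and has a short tail without an ITIM, so it is an adhesion receptor more than a classical inhibitory one.

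The sequences just upstream of the transcription start were examined for the 4 receptors that matched the RefSeq promoter table (GRCm38.p6), because the factor PU.1 drives many myeloid genes through purine-rich sites there. The core GAGGAA, searched on both strands, was present in the 300-base windows of all 4, and in 28.3% of all 32851 windows in that table. The core of the interferon-stimulated response element, a pair of GAAA repeats with any 2 bases between them, was in 3.44% of all windows and in 0 of these 4. The GAAA repeats and GAGGAA can overlap by a few letters, but none of these 4 windows held both motifs. A match describes letters and not a bound site. The Pirb and Havcr2 windows lie at the outer start of the gene spans given below. Those of Lair1 and Cd300a lie inside these spans, at an internal start, and their outer starts were not examined. The stretches below run 5′ to 3′ on the gene's strand and end before the start of transcription, with the core or its reverse complement in capitals. Pira2, an activating relative of Pirb, is shown because its window repeats that of Pirb. The Pira2 window also lies at an internal start.
Pirb, chr7:3720424-3720607, minus strand: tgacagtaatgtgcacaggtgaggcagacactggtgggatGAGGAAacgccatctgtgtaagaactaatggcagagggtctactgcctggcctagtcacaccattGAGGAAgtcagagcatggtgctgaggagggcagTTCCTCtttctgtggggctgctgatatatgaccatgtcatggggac
Pira2, chr7:3845121-3845301, minus strand: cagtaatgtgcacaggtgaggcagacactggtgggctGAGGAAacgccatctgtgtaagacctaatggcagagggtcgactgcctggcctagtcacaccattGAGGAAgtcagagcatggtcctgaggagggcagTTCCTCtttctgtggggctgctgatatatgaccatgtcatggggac
Havcr2, chr11:46454883-46454930, plus strand: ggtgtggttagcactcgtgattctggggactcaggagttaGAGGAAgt
Lair1, chr7:4063205-4063270, minus strand: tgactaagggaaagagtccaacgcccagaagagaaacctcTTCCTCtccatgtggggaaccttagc
Cd300a, chr11:114889962-114890040, plus strand: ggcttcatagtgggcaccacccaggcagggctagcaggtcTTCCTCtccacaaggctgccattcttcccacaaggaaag
Pirb and Pira2 were identical at 264 of 272 aligned bases (97.1%) of their full windows, and both held the core 3 times at the same spacing. The window of Lilra6, another activating relative, was identical to that of Pirb at 259 of 270 aligned bases (95.9%). It held the core 3 times at that spacing as well.

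None of the 8 receptors differed between Cd28 KO and WT macrophages beyond the spread of the libraries. Limma, fitted over all 10172 genes, called 0 of the 8 at an adjusted p below 0.05, with an adjusted p of 0.9995 for each, and 0 had an unadjusted p below 0.05 in this fit or with the block. Over all genes limma called 2 (0.0197%), and 253 (2.49%) had an unadjusted p below 0.05. Replicate numbers were also treated as pairs. The deviations of same-numbered libraries correlated at 0.752, 0.505 and 0.783 across genes, but those of differently numbered libraries of replicates 1 and 2 did so too, at 0.663 and 0.535. Blocked on replicate number, limma again called 0 of the 8, with adjusted p values from 0.802 to 0.994, against 18 of all genes (0.177%). In that blocked fit 803 of all genes (7.89%) had an unadjusted p below 0.05. In 0 of the 8 did the 2 groups separate without overlap, which 683 of all tested genes (6.71%) did. The median log2 difference over the 8 was -0.0007, against -0.0031 over all tested genes, and the median absolute difference was 0.10 against 0.09. Fold changes from limma are on the log2(FPKM + 1) scale. TPM values, given as an alternative, lower the median difference of all tested genes from -0.0031 to -0.06, and medians and signs on that scale are to be read against that. In bulk RNA, fewer cells carrying a receptor and less of its RNA per cell cannot be told apart.

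A few properties of the libraries bear on these values. Cd28, the targeted gene, read 25.7, 24.15 and 26.9 FPKM in the libraries labelled Cd28 KO and 38.23, 30.06 and 51.08 in WT. The groups did not overlap (exact two-sided permutation p = 0.1, the smallest possible), yet the transcript was still listed in all 3 knockout libraries. The log2 difference was -0.59 ± 0.19, with a limma adjusted p of 0.9995, or 0.183 when blocked. Replicate 3 of each genotype lay apart from the remaining 4 libraries, and these 2 were the ones that listed Y-linked genes. Ddx3y stood there at 10.6 and 14.4 FPKM and Eif2s3y at 39.1 and 31.8, against 0 elsewhere, and Kdm5d and Uty were likewise listed only there. Sex, as far as Y-linked transcripts show it, thus followed the replicate 3 split in both genotypes. The part of sex in the replicate 3 differences was not tested. Macrophage markers were high apart from Mertk, with Csf1r at 830 to 972 FPKM and Cd68 at 1806 to 2288. Mertk stood at 4.63 to 7.6 FPKM over all libraries. Markers of other cells were low. Cd3d, Ncr1 and Mcpt4 were listed in 0 libraries. The summed FPKM of 6 T cell, 4 B cell and 5 stromal markers reached at most 7.2, 1.22 and 0.34. For 6 dendritic cell markers the sum was 2.65 to 4.56 FPKM in the knockout against 2.16 to 3.52 in WT, with Ccr7 at 0.86 to 2.6 over all libraries. The T cell sum was mostly Cd4, at 2.95 to 6.42 FPKM. The sum of 6 neutrophil markers was 3.46 to 8.27 FPKM in the knockout against 2.03 to 6.1 in WT. One of them, S100a9, was higher in the knockout at each replicate number, with a log2 difference of 0.57 ± 0.23 and a limma adjusted p of 0.9995, or 0.235 when blocked (unadjusted 0.042 and 0.0018). The part of neutrophil transcripts in the receptor levels was not tested. The sum of 6 mast cell and eosinophil markers was 1.68 to 2.13 in the knockout against 3.04 to 4.23 in WT, mostly Kit. Fcer1a, Cpa3 and Mcpt4 did not exceed 0.37 FPKM. Every Cd28 KO library lay below every WT library for Kit, as for 2.87% of all tested genes. Its log2 difference was -0.66 ± 0.15, with a limma adjusted p of 0.9995, or 0.184 when blocked (unadjusted 0.0036 and 0.00091). The part of this in the levels of receptors that mast cells also carry was not tested.

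The levels of the 8 receptors spanned from abundant to low. Lilrb4a and Sirpa, with means over the 6 libraries of 730.4 and 701 FPKM, ranked 121 and 129 of the 10172 tested genes. Together they made up 74.7% to 78.7% of the summed FPKM of the 8, which was 1757 to 1952 per library. Pirb followed at 214 FPKM, then Siglec1 at 68.7, Cd300a at 60.1, Lair1 at 39.1, Cd200r1 at 36.7 and Havcr2 at 8.11. FPKM is scaled to transcript length, so these levels can be set side by side, with less certainty where transcripts share sequence. That applies to Lilrb4a and Pirb, whose shared windows are given below. Gene positions are those of RefSeq on GRCm38. Lilrb4a was above Sirpa in 3 of 6 libraries, Siglec1 above Cd300a in 4 and Lair1 above Cd200r1 in 2, so these 3 pairs of neighbours were not separated by their spread. The other steps in the order held in all 6 libraries, from the 1.54-fold step between Cd300a and Lair1 to the 4.53-fold step between Cd200r1 and Havcr2.

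**Figure D1:**
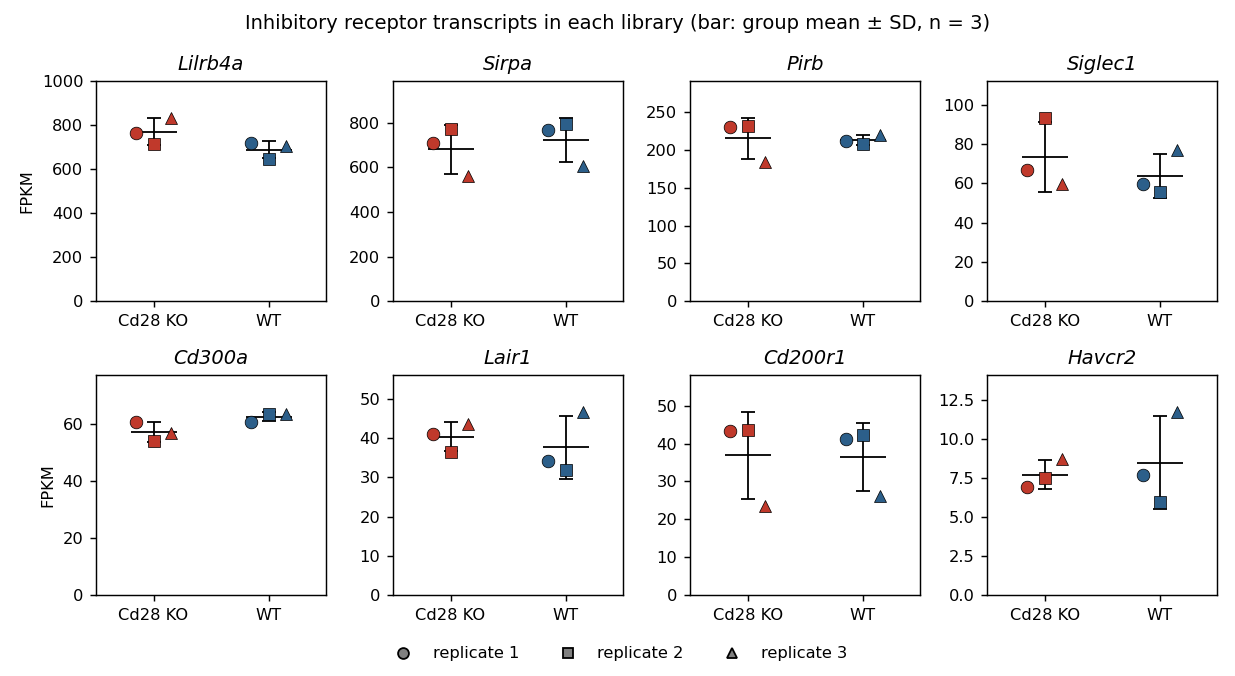
FPKM of the 8 inhibitory receptors in each library, with the Cd28 KO and WT groups on the x axis and FPKM from 0 on the y axis. Symbols are replicates 1 to 3, horizontal bars are group means and error bars are SD (n = 3). The groups overlap in all 8 panels, and the replicate 3 triangles of both genotypes lie lowest for Sirpa and Cd200r1 and highest for Lair1 and Havcr2.

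Sirpa (Entrez 19261, chr2:129591042-129632228), the receptor through which Cd47 on other cells restrains phagocytosis, stood at 708, 772 and 559 FPKM in Cd28 KO replicates 1 to 3 and at 765, 792 and 608 in WT. The replicate 3 library was the lowest of its group in both genotypes, and the groups overlapped. Group means were 679.6 ± 109 FPKM in the knockout against 722 ± 99.8 in WT (SD, n = 3 each). The log2 difference was -0.09 ± 0.16 (SE), with a 95% limma interval from 0.726-fold to 1.22-fold. Sirpa was the lower of the pair at each replicate number, by 0.11, 0.04 and 0.12 on the log2 scale. Its activating relatives Sirpb1a, Sirpb1b and Sirpb1c were low, and Sirpa made up 97.9% to 98.7% of the FPKM of these 4 genes. Its ligand Cd47, also expressed by the macrophages themselves, stood at 60.8 ± 9.02 FPKM in the knockout against 53.2 ± 9.13 in WT. The groups overlapped for Cd47 as well, with a log2 difference of 0.19 ± 0.16 and a limma adjusted p of 0.9995.

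Lilrb4a (Entrez 14728, chr10:51490898-51496613) had the smallest unadjusted p of the 8 (0.148 by limma), and its values were 766, 714 and 834 FPKM in the knockout against 718, 646 and 704 in WT. The second Cd28 KO library lay just below the first WT library, and that is the only overlap between the groups. Group means were 771 ± 60.5 and 689 ± 38.3 FPKM, with a log2 difference of 0.16 ± 0.10 and a 95% interval from 0.951-fold to 1.31-fold. Lilrb4a was the higher of the pair at all 3 replicate numbers, and the difference stayed positive under all 15 alternatives, from 0.035 with quantile normalization to 0.22 without Cd28 KO replicate 2. An exact two-sided permutation test gave p = 0.2, where 0.1 is the smallest possible with 3 against 3.

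How the Lilrb4a reads were assigned may limit this value. In GENCODE M21 (GRCm38), 87.8% of the 100-base windows of its coding transcripts also occur in transcripts of other genes. The gene model Gm49339 holds 87.3% of the windows, and Lilr4b itself 11.7%. Whether the reference behind the deposited values held Gm49339 is not known here, so neither is the share of ambiguous reads. Lilr4b, the neighbouring relative also called gp49A, is known to lack the inhibitory tail motifs, and it stood at 592 ± 59.8 FPKM in the knockout against 523 ± 8.48 in WT. Lilrb4a and Lilr4b varied alike, with a root mean square difference of 0.04 between their log2 library deviations over 6 libraries, the 21st smallest among 10171 genes. Their sum was 1361, 1245 and 1485 FPKM in the knockout against 1251, 1163 and 1224 in WT (exact permutation p = 0.2), and Lilrb4a held 55.5% to 57.5% of it. The genes whose library pattern was most like that of Lilrb4a were Ube2a, Eif2b2 and Nmral1, with root mean square differences of 0.01, 0.03 and 0.03.

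Pirb (Entrez 18733, chr7:3712505-3720382) had almost the same mean in both genotypes, 215 ± 27.3 FPKM in the knockout against 213 ± 6.25 in WT. The libraries read 230, 231 and 183 FPKM in the knockout against 212, 207 and 220 in WT. Cd28 KO thus held both the 2 highest values and the lowest, that of replicate 3. The log2 difference was 0.01 ± 0.11, with a 95% interval from 0.832-fold to 1.21-fold. It was 0.14 ± 0.09 in replicates 1 and 2 alone (limma adjusted p = 0.557) and -0.26 in the replicate 3 pair. On the TPM scale it was -0.06, where the median of all tested genes shifted by -0.05, and after quantile normalization it was -0.03. Pirb also shares sequence with its activating relatives: 24.7% of its 100-base windows occur in transcripts of other genes, 15.2% in Gm14548 and 13.9% in Pira2. The sum of Pirb, Pira1, Pira2, Lilra6, Lilra5 and Gm14548 was 281 ± 30.04 FPKM in the knockout against 283 ± 14.9 in WT, of which Pirb held 73.1% to 78.3%. Pira2, the most abundant of the relatives, stood at 43.8 to 49.7 FPKM in the knockout against 45.4 to 55.4 in WT. The MHC class I genes that encode ligands of Pirb were abundant, with H2-K1 at 925 to 1180 FPKM and H2-D1 at 1987 to 2254 over all libraries, and neither was called.

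Lair1 (Entrez 52855, chr7:4007073-4073567) stood at 41.1, 36.5 and 43.7 FPKM in the knockout against 34.3, 32.0 and 46.8 in WT. WT replicate 3 was the highest of all 6, and the 2 other WT libraries were the lowest. The log2 difference was 0.11 ± 0.16, with a 95% interval from 0.831-fold to 1.41-fold. In replicates 1 and 2 alone it was 0.22 ± 0.10, with an unadjusted limma p of 0.0503 and an adjusted p of 0.388. The Lair1 difference was 0.0091 without WT replicate 2 and 0.28 without WT replicate 3. Genes of its collagen ligands were near or at 0, with Col1a1, Col1a2 and Col3a1 at no more than 0.09 FPKM in any library and Col4a1 at no more than 0.83.

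Cd300a (Entrez 217303, chr11:114889152-114901946) read 60.89, 54.14 and 56.96 FPKM in the knockout against 60.78, 63.76 and 63.86 in WT. A single Cd28 KO library lay above the lowest WT library, by 0.11 FPKM, so the groups overlapped. Group means were 57.3 ± 3.39 and 62.8 ± 1.75 FPKM, with a log2 difference of -0.13 ± 0.09 and a 95% interval from 0.784-fold to 1.06-fold. The difference was negative under all 15 alternatives, from -0.19 to -0.09. Cd300a lies on chromosome 11 in a cluster of related genes, of which the most abundant was Cd300c2, at 195 to 260.5 FPKM. Among the summed FPKM of 7 cluster genes, Cd300a held 11.95% to 12.18% in the Cd28 KO libraries and 12.5% to 13.6% in the WT libraries. These shares did not overlap (exact permutation p = 0.1, the smallest possible), and they were computed after the values were seen.

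Cd200r1 (Entrez 57781, chr16:44765736-44794977) had the largest standard error of the 8 in the fit without a block, and its lowest library was replicate 3 in both genotypes. It stood at 43.4, 43.7 and 23.5 FPKM in the knockout against 41.2, 42.3 and 26.1 in WT. Both replicate 3 libraries were far below the other 4, with a mean of 24.8 against 42.6 FPKM (58.2%). The group means were 36.9 ± 11.6 FPKM in the knockout against 36.5 ± 9.02 in WT. The log2 difference was -0.01 ± 0.28, and the 95% interval ran from 0.625-fold to 1.58-fold without a block and from 0.857-fold to 1.16-fold with it. Cd200r4, an activating relative in the same gene family, was at 52.1 to 61.0 FPKM in the knockout against 44.7 to 61.8 in WT, whereas Cd200r2 and Cd200r3 did not exceed 0.71 FPKM.

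The ligand of Cd200r1 had the larger difference. Cd200 was low throughout, at 1.15, 1.24 and 1.24 FPKM in the knockout against 2.50, 3.51 and 1.62 in WT. Every Cd28 KO library lay below every WT library, as for 2.87% of all tested genes. The log2 difference was -0.65 ± 0.22, with an unadjusted limma p of 0.0195, and an adjusted p of 0.9995, or 0.317 when blocked. In replicates 1 and 2 alone limma called it lower, with a log2 difference of -0.86 ± 0.15 and an adjusted p of 0.049, where it called 71 of all genes (0.698%). The Cd200 pathway genes Dok1 and Dok2, which act below Cd200r1, were not called. Dok1 stood at 48.4, 45.5 and 19.4 FPKM in the knockout against 47.7, 50.0 and 19.3 in WT. Its replicate 3 libraries, like those of Cd200r1 and of 33.7% of all tested genes, were lower than the other 4. Dok2 did not separate this way, with replicate 3 at 48.6 FPKM in the knockout and 43.3 in WT, and 45.9 to 57.7 elsewhere.

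Havcr2 (Entrez 171285, chr11:46454931-46481255), which binds phosphatidylserine and galectin-9, was the lowest of the 8, at 6.92, 7.49 and 8.74 FPKM in the knockout against 7.74, 5.99 and 11.8 in WT. Both ends of the range belonged to WT. Group means were 7.72 ± 0.931 and 8.50 ± 2.97 FPKM, with a log2 difference of -0.08 ± 0.23 and a 95% interval from 0.644-fold to 1.38-fold. Lgals9, which encodes galectin-9, stood at 111, 125 and 163 FPKM in the knockout against 101, 77.9 and 142 in WT, with a log2 difference of 0.34 and a limma adjusted p of 0.9995. Without WT replicate 3 the Havcr2 difference was 0.15, and without WT replicate 2 it was -0.28.

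Siglec1 (Entrez 20612, chr2:131067801-131086778) had the largest log2 difference of the 8, 0.19 ± 0.20, which 20.7% of all tested genes exceeded in absolute size. Its values were 67.06, 93.48 and 59.96 FPKM in the knockout against 59.6, 55.6 and 76.8 in WT, with means of 73.5 ± 17.7 and 64.0 ± 11.3. The highest value came from Cd28 KO replicate 2 and the second highest from WT replicate 3, so the groups overlapped. The 95% interval ran from 0.827-fold to 1.56-fold. The difference was 0.45 ± 0.14 in replicates 1 and 2 alone, with an unadjusted limma p of 0.0101 and an adjusted p of 0.215, and -0.35 in the replicate 3 pair. Without Cd28 KO replicate 2 it was 0.00. The gene closest to Siglec1 in its library pattern, named after the values were seen, was Helz2, at 6.56 to 10.5 FPKM in the knockout against 6.17 to 7.99 in WT, with a root mean square difference of 0.06.

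Siglec1 was set beside 20 interferon-stimulated genes, since it is known as interferon-inducible. That list was chosen with earlier results of these data known. All 20 had a positive log2 difference, with a median of 0.41 (0.36 on the TPM scale and 0.39 after quantile normalization). With single libraries left out, 1 was negative without Cd28 KO replicate 2 and 2 were negative without WT replicate 3. In 14 every Cd28 KO value exceeded every WT value, as in 3.84% of all tested genes. Limma called 0 of the 20 without a block, and 1 with the block, Isg15. Without a block 14 had an unadjusted limma p below 0.05, as did 2.49% of all tested genes. It called 3 of the 20 with a term for replicate 3 and 7 in replicates 1 and 2 alone, where it called 0.275% and 0.698% of all tested genes. Isg15, a ubiquitin-like antiviral protein, stood at 119 ± 7.71 FPKM in the knockout against 75.0 ± 10.9 in WT, and its limma adjusted p was 0.742, or 0.038 when blocked. Zbp1, a sensor of nucleic acids, stood at 70.2, 73.0 and 87.0 FPKM in the knockout against 51.3, 45.3 and 51.6 in WT. The most abundant were Bst2 (tetherin, which holds budding virus at the cell surface) at 368 to 429 FPKM in the knockout against 289 to 347 in WT, and Irf7, a transcription factor of the interferon response, at 194 to 258 and 126 to 205. Rtp4 (191 to 219 FPKM and 131 to 175) and Oas1a, an antiviral synthetase (121 to 132 and 98.6 to 107), followed. Xaf1 (22.7 to 23.1 FPKM and 13.6 to 15.7) and Ifi44 (19.03 to 26.05 and 14.04 to 15.29) were lower in level and did not overlap between groups. Like Siglec1, Oas2 and Stat2 were positive in the pairs of replicates 1 and 2 and negative in that of replicate 3 (-0.18 and -0.10), and the other 18 genes of the list were positive in the replicate 3 pair. Oas2, Stat2 and this pattern were picked out after the values were seen.

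**Figure D2:**
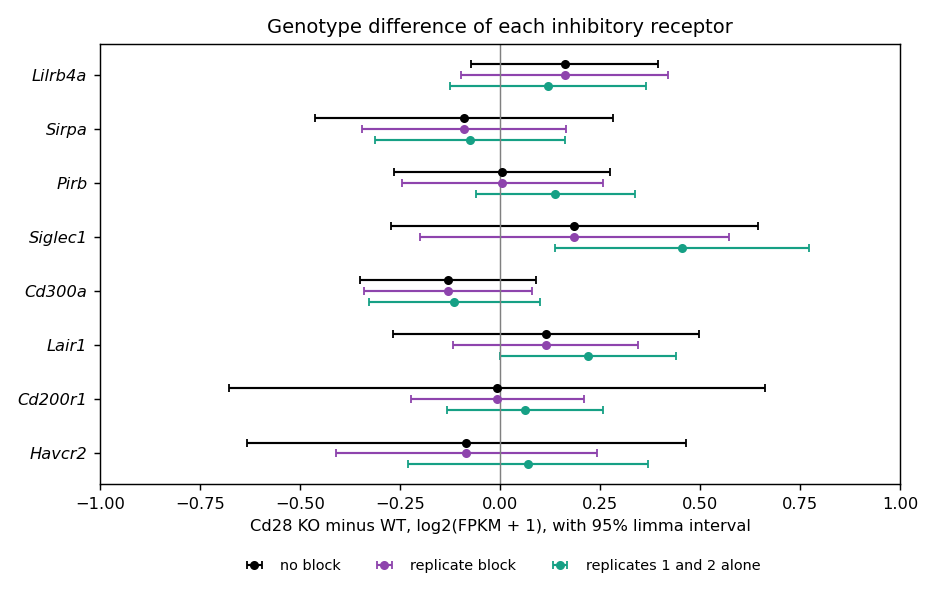
Log2 difference in FPKM + 1 between Cd28 KO and WT on the x axis for each receptor on the y axis, with 95% limma intervals. Black is the fit without a block, purple the fit with the replicate block and green replicates 1 and 2 alone. All intervals cross 0 apart from that of Siglec1 in replicates 1 and 2 alone, which runs from 0.14 to 0.77, and the block narrows the interval of Cd200r1 most.

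The sign of the genotype difference varied with the replicate number for most of the receptors. The median over the 8 was 0.09 in the replicate 1 pair, 0.15 in the replicate 2 pair and -0.15 in the replicate 3 pair. For all tested genes the median was 0.03 in replicates 1 and 2 and -0.05 in replicate 3. Lilrb4a was positive and Sirpa negative in all 3 pairs. Pirb, Siglec1, Lair1 and Cd200r1 were positive in the first 2 pairs and negative in the third. Whether the genotype difference itself differs between replicate 3 and the others was not tested.

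**Figure D3:**
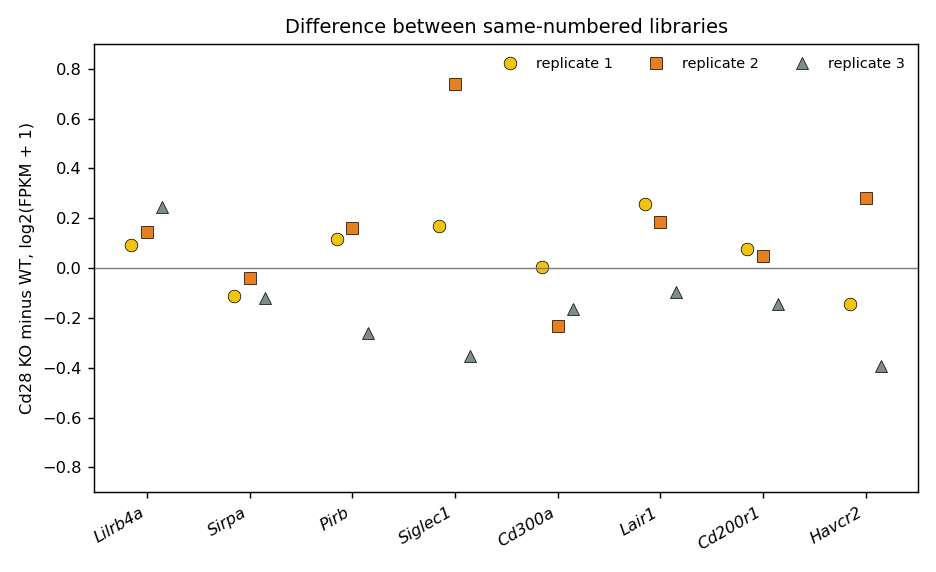
Cd28 KO minus WT in log2(FPKM + 1) on the y axis for the library pair of each replicate number, for each receptor on the x axis. Circles are replicate 1, squares replicate 2 and triangles replicate 3. Of the 8 receptors, Lilrb4a is the 1 whose replicate 3 triangle lies above 0, at 0.24, and the Siglec1 pairs range from -0.35 to 0.74.

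Across both genotypes, the replicate 3 libraries separated 4 of the 8 receptors from the other 4 libraries. Sirpa and Cd200r1 were lower in both, at 76.8% and 58.2% of the mean of the rest, and Lair1 and Havcr2 were higher, at 126% and 146%. Such a separation was common, with 33.7% of all tested genes lower and 15.3% higher in both replicate 3 libraries, or 49.0% in either direction. Lilrb4a, Pirb, Siglec1 and Cd300a did not separate, with replicate 3 at 108%, 91.5%, 99.2% and 101% of the rest. Ptpn6, which encodes the phosphatase that many ITIM receptors recruit, was lower in both replicate 3 libraries, at 162 FPKM in the knockout against 151 in WT against 201 to 223 elsewhere.

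The other genes of the pathway showed no called difference by genotype either, apart from Cd200 in replicates 1 and 2 alone. Of 25 other inhibitory receptors, 14 were tested, 10 with positive and 4 with negative values and a log2 median of 0.09 (0.04 on the TPM scale), and limma called 0 with or without the block. At an unadjusted limma p below 0.05 the counts were 0 and 2, where 2.49% and 7.89% of all tested genes were. The 2 had opposite signs, Pilra at 0.41 and Cd22 at -0.43. Cd72, the most abundant of them and an ITIM receptor best known on B cells, stood at 694 to 801 FPKM in the knockout against 519 to 731 in WT. Milr1, an ITIM receptor also called allergin-1, was the 1 tested member without overlap, at 67.0 to 82.2 FPKM against 58.7 to 66.1. Of all tested genes, 3.84% were higher without overlap, and 6.71% separated in either direction. For Milr1, limma gave an adjusted p of 0.9995, or 0.630 when blocked. Clec12a, a lectin receptor with an ITIM, stood at 281 to 363 FPKM against 255 to 307, and Vsir (VISTA) at 86.8 to 105 against 86.8 to 109.9. Checkpoint receptors best known on T cells were near 0: Tigit and Klrg1 were listed in 0 libraries, and Pdcd1, Ctla4, Lag3 and Btla did not exceed 0.48 FPKM.

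Of 26 activating relatives, 21 matched the annotation and 15 were tested, with 10 positive and 5 negative differences, a median of 0.06 (0.00 on the TPM scale) and 0 called in either fit, also at an unadjusted p below 0.05. Trem2, a lipid receptor that signals through Tyrobp, was the most abundant at 726 to 819 FPKM in the knockout against 659 to 884 in WT. Cd300lb stood at 89.7 to 127 FPKM against 95.1 to 142, with replicate 3 the lowest of both groups.

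Of 18 ligands, 10 were tested, with 6 positive and 4 negative differences and a median of 0.09 (0.03 on the TPM scale). Limma called 0 in either fit. At an unadjusted limma p below 0.05 were 1 (Cd200) and, when blocked, 2 (Cd200 and Lgals9), against 2.49% and 7.89% of all tested genes. B2m, the light chain of MHC class I, was the most abundant at 3542 to 5733 FPKM in the knockout against 3702 to 3982 in WT. Apoe, reported as a ligand of the human relative LILRB4, stood at 1594, 1116 and 1740 FPKM in the knockout against 1976, 2423 and 1417 in WT, and the groups overlapped.

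All 16 genes of inhibitory signalling were tested, with 6 positive and 10 negative differences, a median of -0.02 (-0.08 on the TPM scale) and 0 called in either fit. None had an unadjusted p below 0.05 in either fit. Ptpn6 stood at 202 ± 34.8 FPKM in the knockout against 186 ± 30.8 in WT. Skap2 and Fyb, adaptors linked to Sirpa signalling, had log2 differences of 0.07 and -0.01, and Csk, a kinase that restrains Src-family kinases, one of 0.07. All 8 activating adaptors and kinases were tested as well, with 6 positive differences (2 on the TPM scale, where the median of all tested genes was -0.06), a median of 0.05 and 0 called in either fit. Fcer1g and Tyrobp were the most abundant of them, at 2505 to 3351 and 1674 to 2319 FPKM over all libraries, and Syk and Plcg2, the kinase and phospholipase below them, had log2 differences of -0.09 and 0.02.

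**Figure D4:**
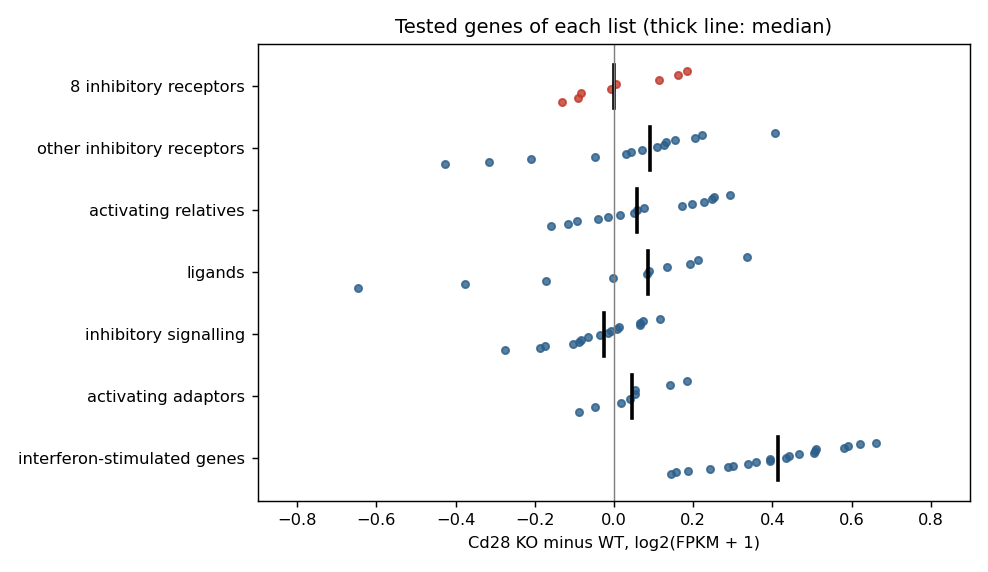
Log2 difference in FPKM + 1 between Cd28 KO and WT on the x axis for the tested genes of each list on the y axis. Each point is a gene and each thick line a list's median. The 8 inhibitory receptors lie between -0.13 and 0.19, and the lowest ligand is Cd200 at -0.65.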

How the data were processed

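RNA sequencing libraries from 3 Cd28 KO and 3 WT cultures were grouped by their titles. The authors deposited FPKM values, 1 per Entrez gene and library, made with Bowtie and RSEM on GRCm38 per the submitters' processing notes, with no versions given there. A file lists genes of at least 0.01 FPKM, and an unlisted gene was taken as 0. RSEM divides reads between similar genes by estimation. Each library listed 12768 to 13327 genes, FPKM summed to 510937 to 576313, and the number of reads is unknown. Of 14574 Entrez numbers, 14551 matched RefSeq for GRCm38.

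Limma 3.58.1 (two-sided, trended empirical Bayes, Benjamini-Hochberg over all tested genes, in R 4.3.3) was run on log2(FPKM + 1) for genes averaging 1 FPKM or more. The fit was tested on simulated data. Deviations from group means correlated across genes at 0.752, 0.505 and 0.783 for the same-numbered libraries of replicates 1, 2 and 3. All exceeded 0.1, so the numbers were taken as pairs, from the data and not from a label, and a fit blocked on replicate number is given beside the results. Replicate 3 stood apart in both groups, and replicates 1 and 2 correlated across numbers as well (0.663 and 0.535), so their pairing is assumed. Other alternatives were a replicate 3 term, replicates 1 and 2 alone, another pseudocount, filters, scalings, and each library left out.

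The receptors and gene lists were chosen with earlier results of these data known. Named genes are Cd28, the 8 receptors and, of each list, the genes called, the 4 of highest level and up to 4 without overlap. The 3 genes most like the receptor of smallest p were also named. Other genes named were chosen after their values were seen. Windows of 50 and 100 bases of GENCODE M21 coding transcripts were matched to all transcripts on both strands. Promoters came from RefSeq GRCm38.p6 and were aligned locally. Other steps used SciPy 1.17.1, NumPy 2.4.6 and pandas 2.3.3 in Python 3.11.15, with plots from Matplotlib 3.10.9.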

Additional observations from a re-analysis of the deposited data

How the results depend on the processing

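None of the 8 receptors was called under any of the 15 alternatives, in which their smallest limma adjusted p was 0.215 (Siglec1, replicates 1 and 2 alone), and the replicate block changed no call among them. Of 120 alternative values, 108 kept their direction and 12 reversed, all for uncalled genes. Pirb, at 0.01, became -0.055 on the TPM scale, which shifts the median of all tested genes by as much (-0.055), and -0.028 with quantile normalization, and ranged from -0.052 to 0.12 with each library left out, below 0 without replicate 1 or 2 of Cd28 KO or replicate 2 of WT. Cd200r1, at -0.01, became 0.062 in replicates 1 and 2 alone and ranged from -0.23 to 0.28 with each library left out, above 0 without replicate 3 of Cd28 KO or replicate 1 or 2 of WT. Havcr2 became 0.069 in replicates 1 and 2 alone and ranged from -0.28 to 0.15, above 0 without replicate 3 of WT. Sirpa ranged from -0.21 to 0.044, above 0 without replicate 3 of Cd28 KO. The cause of these changes was not tested. Over all genes limma called 2 higher and 0 lower, which became 14 and 4 with the replicate block, 20 and 8 with the replicate 3 term, 40 and 31 in replicates 1 and 2 alone, and 2 and 3 without the filter, where more genes were tested. The Cd28 difference of -14.2 FPKM ranged from -19.1 to -8.56 with each library left out. With 3 libraries per group, the limma intervals without a block reach 0.625-fold and 1.58-fold (both for Cd200r1) on the log2(FPKM + 1) scale. Differences inside a receptor's interval were not excluded for it.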
